A study of Mus with 4 samples.

Results

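The regions described here are the m6A peaks on Zfp genes, the mouse genes whose symbol is Zfp followed by a number. A peak was taken when the gene symbol deposited with it was Zfp and digits, with 1 ending letter allowed. This rule took 733 of the 18400 peaks listed for Wtapflox/flox mice and 646 of the 18693 peaks listed for Wtap-BKO mice. They lay on 304 gene symbols in all, 284 in the first list and 271 in the second. Zfp36l1 and Zfp36l2 did not match the rule. The study mapped m6A in interscapular brown adipose tissue (iBAT) of C57BL/6 mice that were 8 weeks old. Both groups carry loxP-flanked Wtap alleles, Wtap being a regulatory subunit of the m6A methyltransferase. The Wtapflox/flox controls have no Cre, and the Wtap-BKO mice also carry Ucp1-iCre, which acts in brown adipocytes and leaves Wtap intact in the other cells of the depot. Each group gave 1 immunoprecipitate (IP) and 1 input sample, each a pool of 8 mice, and the authors called peaks once per genotype. There are therefore no replicates, and every comparison between the genotypes is a description without a test. In bulk tissue, fewer cells of a type and less RNA per cell cannot be told apart. Nor does a peak give the amount of a transcript.

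Zfp genes are named after the zinc finger, a short fold held by a zinc ion that lets a protein read DNA or RNA. Most encode proteins with a row of C2H2 fingers, and in mammals the fingers of 1 protein commonly lie in a single long last exon. Many also carry a Krueppel-associated box (KRAB), which recruits the corepressor TRIM28 and through it the histone methyltransferase SETDB1, and which silences transposable elements and imprinted regions. KRAB zinc finger genes arose by repeated duplication and sit in clusters, so neighbours can be nearly identical. m6A is deposited on nuclear RNA by METTL3, METTL14 and WTAP, is known to favour long internal exons and the region around stop codons, and is read by proteins that change splicing, export, decay and translation.

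By the deposited gene descriptions, 186 of the 304 Zfp symbols (61.2%) named a KRAB domain, 8 of them together with a SCAN domain. A further 115 had C2H2 fingers without KRAB, and of these 5 had a SCAN domain and 2, Zfp131 and Zfp651, a BTB/POZ domain. The other 3 symbols, Zfp36, Zfp330 and Zfp706, had no C2H2 finger in their description. Zfp36 encodes tristetraprolin, a CCCH-type protein that binds AU-rich elements and promotes mRNA decay. The genes were grouped in the genome, as chromosomes 7, 17 and 13 held 76, 41 and 30 of them. These 3 chromosomes had 48.4% of the Zfp genes, against 15.4% of the other named genes with a peak. The share was 60.8% for KRAB genes and 28.8% for the remaining Zfp genes. Reads from near-identical neighbours can be assigned to either copy, so the gene to which a peak was given is uncertain within such clusters.

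Zfp genes with a peak carried more peaks than other genes did. In Wtapflox/flox iBAT, a Zfp gene had a mean of 2.57 ± 0.0915 peaks (SE over 285 Ensembl genes), and the other 8499 named genes had 1.93. In Wtap-BKO iBAT the means were 2.37 ± 0.0897 over 273 genes and 1.98 over 8485 genes. The SE is a spread between genes, not between mice. The difference was 0.644 peaks per gene in the Wtapflox/flox list, with a 95% interval of 0.463 to 0.826, and 0.385 (0.206 to 0.563) in the Wtap-BKO list. With only peaks of a false discovery rate (FDR) under 1e-05 the Wtap-BKO difference was 0.137, and its interval of -0.0266 to 0.301 included 0. A single peak was found on 27.7% of the Zfp genes and 48.6% of the other genes in the Wtapflox/flox list, and on 33.0% and 47.5% in the Wtap-BKO list. At least 4 peaks were found on 59 Zfp genes (20.7%, against 9.85% of other genes) and 46 Zfp genes (16.8%, against 10.9%). C2H2 genes without KRAB had more peaks, 3.20 and 3.09 per gene, than KRAB genes, with 2.17 and 1.95. Named C2H2 genes outside the Zfp series had 2.70 and 2.60 peaks per gene, above the Zfp means.

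**Figure D1:**
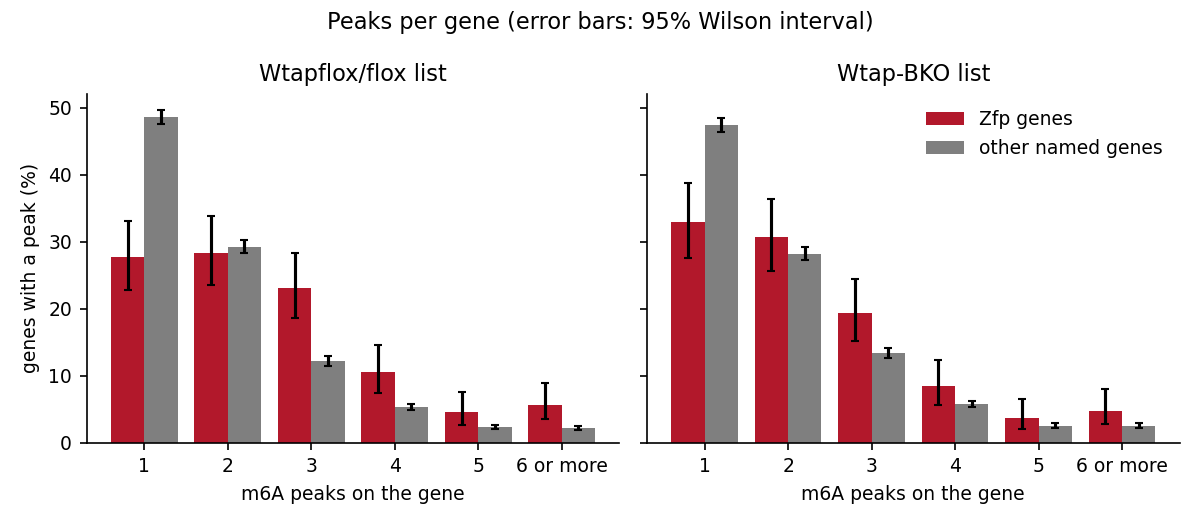
Share of genes (percent, vertical axis) by number of m6A peaks on the gene (horizontal axis, the last class being 6 or more), for Zfp genes and other named genes in each list, with 95% Wilson intervals. A single peak was the most frequent class for other genes (48.6% and 47.5%), while Zfp genes with 1 peak made 27.7% and 33.0%.

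The 6 Zfp genes with most Wtapflox/flox peaks were C2H2 genes without KRAB. Zfp318, which B cells need to express IgD, had 10 peaks in Wtapflox/flox and 7 in Wtap-BKO. Zfp217, which binds METTL3 and takes part in adipogenesis, had 8 and 6, and Zfp292 also had 8 and 6. Zfp644 had 7 and 5, Zfp646 had 7 and 6, and Zfp652 had 5 and 7. The KRAB gene Zfp445 was among the 6 with most Wtap-BKO peaks, with 6 peaks in Wtapflox/flox and 7 in Wtap-BKO. ZFP445 maintains genomic imprints together with ZFP57. Zfp865 went from 7 peaks to 13, but its 13 lie on 2 Ensembl genes with that symbol, and 2 of the Wtap-BKO peaks were listed under the second identifier at almost the same positions. Zfp462 had 2 peaks and then 7, none of the 9 with an FDR under 1e-05. The Zfp366 transcript, which encodes the dendritic cell protein DC-SCRIPT, had 3 and 6, with 3 under 1e-05 in each list. Its Wtap-BKO peaks that were not found in Wtapflox/flox had log10 FDR of -4.03, -3.41 and -2.67, and some of its Wtap-BKO peaks lay outside the annotated gene.

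Over all listed peaks, those on Zfp genes had the same median length as those on other genes. The length of a peak is the sum of its exonic blocks. Its median was 241 bases (95% interval 240 to 270) for Zfp peaks and 241 for peaks on other genes in the Wtapflox/flox list, and 211 (210 to 240) and 211 in the Wtap-BKO list. Among peaks with an FDR under 1e-05 the Zfp medians were above those of other genes, at 361 bases (331 to 391) against 330 in Wtapflox/flox and 331 (301 to 360) against 300 in Wtap-BKO. The middle of the Zfp distribution was wider in the controls, with quartiles of 151 and 419 bases against 179 and 390. Peaks of at least 600 bases made 9.41% of the Zfp peaks (69 peaks) and 10.5% of the others in Wtapflox/flox, and 6.35% (41 peaks) and 7.62% in Wtap-BKO. C2H2 genes without KRAB had longer peaks, with medians of 299 and 241 bases, than KRAB genes, with 240 and 209. The longest Zfp peak of the Wtapflox/flox list had 1889 bases on Zfp322a, followed by 1470 on Zfp652 and 1166 on the KRAB gene Zfp871. The longest of the Wtap-BKO list had 1379 bases on Zfp608, 1077 on Zfp639 and 1018 on Zfp646.

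Zfp peaks were rarely spliced. A peak is listed as 2 or more blocks when it runs across an exon junction. Of the Wtapflox/flox Zfp peaks, 42 did so (5.73%, 95% Wilson interval 4.27 to 7.65), against 16.2% of the peaks on other named genes. Of the Wtap-BKO Zfp peaks, 38 did (5.88%, 4.32 to 7.97), against 21.1%. The differences were -10.5 percentage points (-12.0 to -8.46) and -15.2 (-16.9 to -13.0). Each kept its sign when blocks under 10 bases were not counted. KRAB genes had the lowest shares, 2.96% and 4.56%, and C2H2 genes without KRAB had 8.38% and 6.80%. Other named C2H2 genes lay between the Zfp genes and the rest, at 9.43% and 12.0%. Intervals treat peaks as independent, although peaks of 1 gene share a transcript, and they cover counting error only. The Zfp peak with most blocks was on Zfp91, an atypical E3 ubiquitin ligase of non-canonical NF-kB signalling. It had 3 blocks and 241 bases in Wtapflox/flox, and 5 blocks and 331 bases in Wtap-BKO. On Zfp467, which promotes adipocyte differentiation, the corresponding peak had 3 blocks and then 2. Zfp598, an E3 ligase that senses collided ribosomes, had a peak of 3 blocks in the controls, and Zfp771 and Zfp777 had 1 each in Wtap-BKO.

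Zfp peaks lay closer to one another, and less often at the very end of the gene, than the peaks of all other genes together. Distances were measured along the genome to the 3ʹ end that RefSeq gives for the gene on GRCm38.p6, named as the build in the submitters' processing notes, for peaks inside genes of at least 3000 bp. Within 1000 bp of the 3ʹ end lay 87 of 718 Wtapflox/flox Zfp peaks (12.1%, 9.93 to 14.7) and 21.0% of the peaks on other genes. In Wtap-BKO the shares were 13.6% (85 of 625, 11.1 to 16.5) and 18.6%. Other named C2H2 genes had shares like the Zfp genes, 12.8% and 11.3%. Within 5000 bp the order was the other way, with 68.7% and 67.0% of the Zfp peaks and 59.6% and 56.2% of the others. Other named C2H2 genes had 55.5% and 55.7% there. KRAB genes reached 81.7% and 79.3% within that distance, and C2H2 genes without KRAB 54.6% and 53.1%. The median distance was 3031 bp in Wtapflox/flox and 3087 bp in Wtap-BKO for Zfp peaks, and 3321 and 3817 bp for other genes. Distances were not scaled to the span of the gene, which had a median of 17343.5 and 16790 bp for Zfp peaks. For other genes the median span was 27036 and 27096 bp. Near the 5ʹ end, within 1000 bp of it, lay 3.06% and 3.68% of the Zfp peaks and 9.43% and 10.3% of the others. Other named C2H2 genes had 5.18% and 5.17% there, like the C2H2 Zfp genes without KRAB (5.20% and 5.78%). KRAB genes had 1.08% and 1.82%.

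**Figure D2:**
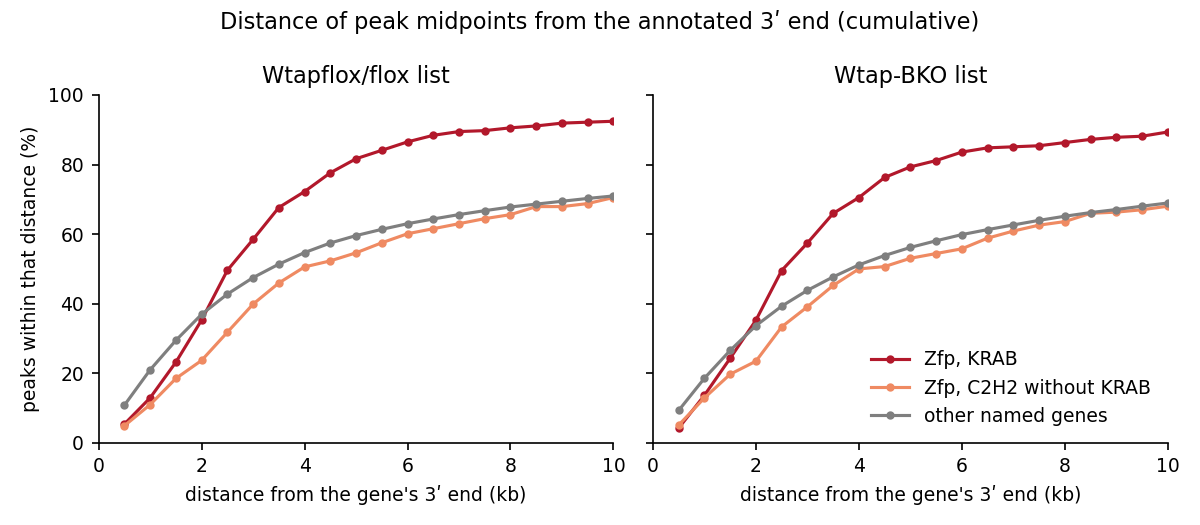
Cumulative share of peaks (percent, vertical axis) by distance of the peak centre from the annotated 3ʹ end of its gene (kb, horizontal axis) for KRAB Zfp genes, other C2H2 Zfp genes and other named genes in each list. The KRAB curve starts below that of other genes, and by 5 kb it stands at 81.7% and 79.3% against 59.6% and 56.2%.

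Neighbouring peaks of 1 Zfp gene were separated by a median of 389 bp of genome (445 gaps) in Wtapflox/flox and 449 bp (370 gaps) in Wtap-BKO. For other genes the medians were 1165 and 1303.5 bp. The gap was under 1000 bp for 75.3% and 70.5% of the Zfp neighbours, and for 48.0% and 45.6% of the others. This held among genes with the same number of peaks. With 2 peaks, the gap was 597 bp on Zfp genes against 2604 bp in Wtapflox/flox and 672 against 2808 bp in Wtap-BKO, and with 3 peaks it was 372.5 against 1296 bp and 418 against 1688.5 bp. On KRAB genes 88.4% and 82.3% of the gaps were under 1000 bp, and on C2H2 genes without KRAB 64.5% and 61.1%. Other named C2H2 genes had 59.6% and 55.9%. With 2 peaks, the median gap was 418 and 595 bp on KRAB genes. On C2H2 Zfp genes without KRAB it was 1494 and 837 bp, near the 1496 and 860 bp of other named C2H2 genes. With 3 peaks the latter 2 groups had 507 against 849 bp and 701.5 against 997 bp.

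The share of Zfp peaks found again in the other genotype differed with the direction of the comparison. A peak was counted as found when it had 1 or more exonic bases in common with a peak of the other list, strand included. Of the Wtapflox/flox Zfp peaks, 479 of 733 were found in Wtap-BKO (65.3%, 61.8 to 68.7), against 69.0% of the peaks on other named genes and 67.8% of the whole list. Of the Wtap-BKO Zfp peaks, 497 of 646 were found in Wtapflox/flox (76.9%, 73.5 to 80.0), against 68.5% on other named genes and 68.0% of the whole list. The first difference was -3.64 percentage points (-7.23 to -0.209) and the second 8.41 (4.93 to 11.6). The first depended on the rule. With at least 50% of the bases shared it was -6.66 points (-10.4 to -3.00). It was 3.85 points in favour of the Zfp genes when any peak on the same gene was enough, and 3.40 (-0.624 to 6.83) among peaks with an FDR under 1e-05. The second kept its sign under each alternative. Named C2H2 genes outside the Zfp series had 71.4% and 77.6%. Their share of the Wtap-BKO peaks was thus like that of the Zfp genes (difference -0.620 points, -5.36 to 4.18). For the Wtapflox/flox peaks the Zfp share was lower than theirs (difference -6.03 points, -11.0 to -0.990). KRAB genes had 63.3% and 75.1% and C2H2 genes without KRAB 67.3% and 79.6%, with intervals of the difference that included 0 in both lists.

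Finding a peak depended on its strength. When each list was ranked by FDR and divided into 5 classes of equal size, the strongest class held 67 Wtapflox/flox Zfp peaks, and all 67 were found. The shares from the next class to the weakest were 91.7%, 70.3%, 56.0% and 35.7%. For other named genes the 5 shares were 90.5%, 82.3%, 68.2%, 57.5% and 43.4%. In Wtap-BKO all 66 Zfp peaks of the strongest class were found, and the shares after that were 99.2%, 92.3%, 68.7% and 50.3%. Other named genes had 97.8%, 87.4%, 67.0%, 51.9% and 35.9%. The Zfp share was thus higher in each of the 5 Wtap-BKO classes, and in the Wtapflox/flox list it was higher in the 3 strongest classes and lower in the 2 weakest. The Wilson intervals of these 2 sets overlapped in the 3 weakest classes of the Wtapflox/flox list and in the strongest class of the Wtap-BKO list. Named C2H2 genes outside the Zfp series had 98.9%, 93.4%, 75.2%, 52.7% and 45.1% in Wtapflox/flox. In Wtap-BKO they had 100%, 94.4%, 80.6%, 70.6% and 47.9%. They too stood above the other named genes in each Wtap-BKO class and in the 3 strongest Wtapflox/flox classes, so this pattern was not particular to Zfp genes. The Zfp peaks were not spread evenly, as only 9.14% and 10.2% of them stood in the strongest class of their list. Spread over the classes as the Zfp peaks were, the other genes would have had 64.4% in Wtapflox/flox and 61.7% in Wtap-BKO. The Zfp genes differed from these by 0.957 and 15.2 points. Both values depended on the ranking. With classes by fold enrichment (IP over input), 35.5% and 32.5% of the Zfp peaks stood in the highest class. The other genes would then have had 72.2% and 69.1%, from which the Zfp genes differed by -6.86 and 7.82 points.

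**Figure D3:**
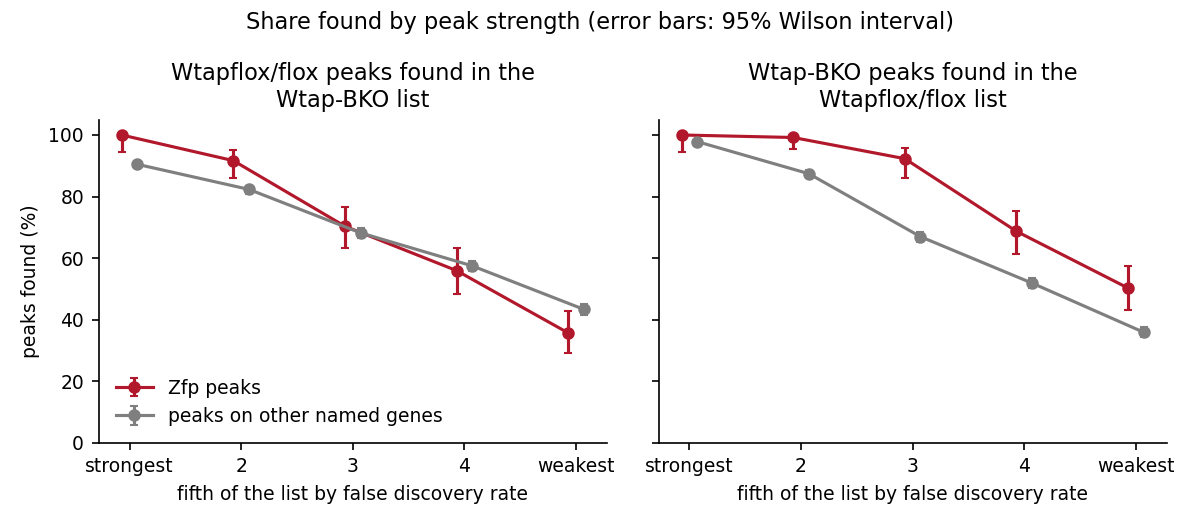
Share of peaks found in the other list (percent, vertical axis) in 5 equal classes of each list ranked by FDR (horizontal axis, strongest first), for Zfp genes and other named genes, with 95% Wilson intervals. Zfp peaks start at 100% in both lists and reach 35.7% in the weakest Wtapflox/flox class and 50.3% in the weakest Wtap-BKO class.

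Zfp peaks, most of all those on KRAB genes, had a higher fold enrichment and a weaker FDR than peaks on other named genes. The fold enrichment is the authors' ratio of IP over input within 1 genotype. Its median was 10.3 for Zfp peaks and 6.37 for other genes in Wtapflox/flox, and 7.52 and 4.55 in Wtap-BKO. The median log10 of the FDR was -5.75 against -8.18, and -4.50 against -6.50. An FDR under 1e-05 was given for 55.1% of the Wtapflox/flox Zfp peaks and 46.1% of the Wtap-BKO Zfp peaks, against 64.6% and 59.4% on other genes. On KRAB genes these shares were 48.2% and 37.4%, with median fold enrichments of 11.2 and 8.44. C2H2 Zfp genes without KRAB had 61.7% and 55.7%, with 8.24 and 6.32. Named C2H2 genes outside the Zfp series were near the latter, at 60.1% and 55.3%, with 7.87 and 5.80. FDR and fold enrichment of the 2 lists are given side by side below, and they are not comparable as levels, since read totals are unknown.

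Fewer Zfp peaks were listed in Wtap-BKO than in Wtapflox/flox, while other genes had slightly more. The ratio of the counts was 0.881 for Zfp genes (646 over 733) and 1.03 for other named genes (16815 over 16384). It was 0.887 for KRAB genes (371 and 329 peaks), 0.863 for C2H2 genes without KRAB (358 and 309) and 0.923 for other named C2H2 genes (594 and 548). The listed Zfp exonic bases had a ratio of 0.776, and those of other genes 0.914. Among strong peaks the ratios were lower in both sets. At an FDR under 1e-05 the counts were 404 and 298, a ratio of 0.738 against 0.944 for other genes. At 1e-10 they were 237 and 166 (0.700 against 0.852), at 1e-20 they were 116 and 65 (0.560 against 0.745), and at 1e-50 they were 26 and 12 (0.462 against 0.657). KRAB genes had 43 and 14 peaks under 1e-20, a ratio of 0.326, and C2H2 genes without KRAB had 71 and 49 (0.690). The read depth of the lists is unknown.

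**Figure D4:**
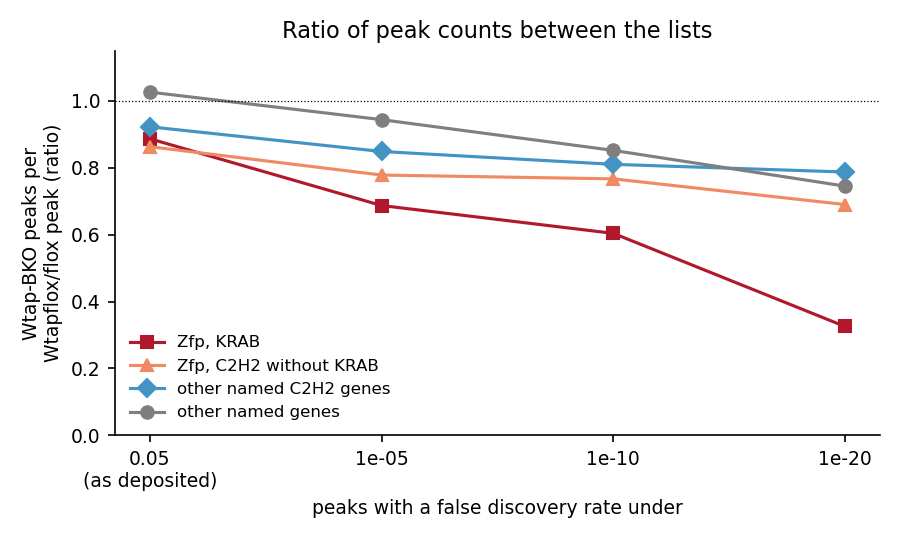
Ratio of the number of Wtap-BKO peaks to the number of Wtapflox/flox peaks (vertical axis, linear) for all listed peaks and for peaks under 3 FDR limits (horizontal axis), by gene group. For all peaks the ratio was 0.887 on KRAB Zfp genes and 1.03 on other named genes, and under 1e-20 it was 0.326 and 0.745.

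Where a Zfp peak was found in both lists, it ranked lower and was shorter in Wtap-BKO more often than a peak on another gene. Of the 479 Wtapflox/flox Zfp peaks that were found, the Wtap-BKO peak stood higher in its own list by FDR for 203 (42.4%, 38.0 to 46.8), against 56.3% on other named genes and 53.1% on other named C2H2 genes. The Wtap-BKO peak was shorter for 289 (60.3%, 55.9 to 64.6), against 47.7%. Seen from the 497 Wtap-BKO peaks that were found, the Wtapflox/flox peak stood higher for 302 (60.8%, 56.4 to 65.0), against 47.5%. Single Wtapflox/flox peaks lay over 2 or more Wtap-BKO peaks in 44 cases, and the reverse was seen in 33. These were 9.19% and 6.64% of the found Zfp peaks, near the 8.61% and 7.17% of other genes. The longest Zfp peak shows such a case. On Zfp322a, which takes part in embryonic stem cell pluripotency, the single Wtapflox/flox peak of 1889 bases (log10 FDR -39.8) lay over 4 Wtap-BKO peaks of 181, 270, 331 and 480 bases, the strongest at -20.1. They shared 1262 bases with it. On Zfp871, the 1166 bases of the controls (log10 FDR -23.7) were covered in part by Wtap-BKO peaks of 748 and 299 bases (-16.5 and -10.6). The reverse was seen on Zfp646, where the Wtap-BKO peak of 1018 bases lay over Wtapflox/flox peaks of 480 and 450 bases.

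**Figure D5:**
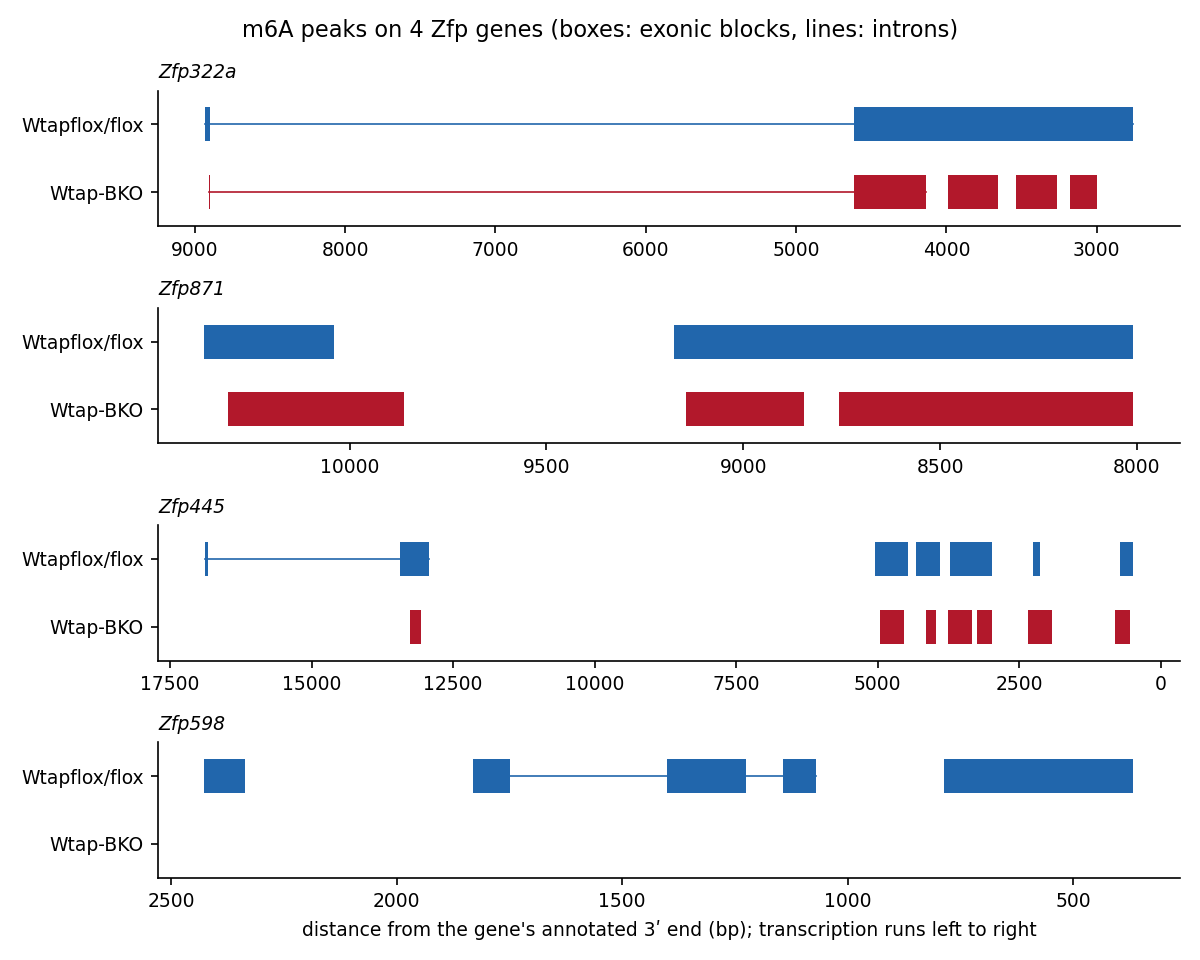
Peaks of both lists on 4 Zfp genes by distance from the annotated 3ʹ end (bp, horizontal axis, transcription from left to right), with exonic blocks as boxes and introns as lines. The 1889-base Wtapflox/flox peak of Zfp322a lies over 4 Wtap-BKO peaks, all 6 and 7 peaks of Zfp445 overlap between the lists, and the 3 peaks of Zfp598 are listed for Wtapflox/flox alone.

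The strongest Zfp peaks were found in both lists. In Wtapflox/flox, 4 Zfp peaks had an FDR given as 0. The peak on Zfp91 at chr19:12769831-12770341 (511 bases, fold enrichment 16.3) matched a Wtap-BKO peak of 421 bases with a log10 FDR of -131 and a fold enrichment of 5.32. Zfp703, which encodes a transcriptional repressor, had 2 of the 4. The peak at chr8:26979617-26980390 covered the same 774 bases in both lists, with a fold enrichment of 13.6 in Wtapflox/flox and 4.91 in Wtap-BKO, where its log10 FDR of -208 was the strongest of all Zfp peaks. Its neighbour had 358 bases and a fold enrichment of 7.54, then 239 bases and 2.32 (log10 FDR -59.3). The fourth, listed for Zfp652, lay beyond the annotated end of that gene and overlapped a peak listed for a different gene, so its assignment is uncertain. It covered 1470 bases in the controls, where Wtap-BKO had peaks of 361 and 420 bases. On Zfp36 the main peak had 838 bases and then 808, with log10 FDR -158 and -135 and fold enrichment 6.75 and 4.35. On Zfp740 it had 689 and 570 bases, log10 FDR -212 and -80.8, and fold enrichment 27.9 and 7.83.

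Most Zfp genes had peaks in both genotypes. Of the 304 symbols, 251 (82.6%, 77.9 to 86.4) had a peak in both lists, against 73.0% of other named genes. Peaks in Wtapflox/flox alone were found on 33 (10.9%), against 13.5%, and in Wtap-BKO alone on 20 (6.58%), against 13.4%. Other named C2H2 genes had 86.6%, 8.66% and 4.76%, so these shares were not a trait of the Zfp genes alone. More Wtapflox/flox than Wtap-BKO peaks were listed on 138 Zfp genes (45.4%, 39.9 to 51.0), against 30.5% of other genes. The opposite was seen on 78 (25.7%, 21.1 to 30.8), against 33.5%, and 88 had equal numbers. For other named C2H2 genes these shares were 36.8% and 26.4%. These shares were not adjusted for the larger number of peaks per Zfp gene. KRAB genes had peaks in 1 list alone 18 times for Wtapflox/flox and 16 times for Wtap-BKO, and C2H2 genes without KRAB 15 and 3 times. Among the 251 genes, each Wtapflox/flox peak was found in Wtap-BKO on 112 (44.6%, against 64.9% of other genes), and each Wtap-BKO peak was found in Wtapflox/flox on 158 (62.9%, against 61.9%). Other named C2H2 genes had 56.0% and 60.5%. The shares with each peak found were likewise not adjusted for peaks per gene, and a gene with more peaks meets this rule less easily. On 14 of the 251 (5.58%) no peak was shared, a share near the 6.23% of other genes.

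The following genes were chosen after their values were seen, for the size of the change in number. Zfp704 had 7 peaks in Wtapflox/flox and 2 in Wtap-BKO, Zfp59 had 5 and 1, and Zfp2 had 3 and none. On Zfp704 none of the 5 peaks that were not found had an FDR under 1e-05. In the other direction, Zfp560 had none and then 3, and Zfp553 had 3 and then 6. No peak on Zfp59 or Zfp560 had an FDR under 1e-05 in either list, and 1 of the 3 on Zfp2 did. On Zfp553 it was 2 of the 3 Wtapflox/flox peaks and 1 of the 6 Wtap-BKO peaks.

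No Zfp peak listed for 1 genotype alone stood in the strongest class of its list. The strongest Wtapflox/flox Zfp peaks not found in Wtap-BKO were on Zfp768 (772 bases, log10 FDR -20, fold enrichment 12.7), Zfp672 (329 bases, -19.3, 9.44), Zfp771 (241 bases, -18.4, 6.41) and Zfp874b (240 bases, -17.3, 10.8). By FDR these exceeded 73.2%, 72.5%, 71.5% and 70.1% of their list. Of these genes, Zfp672 had no peak at all in Wtap-BKO. Zfp598 also had none there, and its 3 Wtapflox/flox peaks had 419 bases (log10 FDR -10.8), 329 bases (-6.61) and 90 bases (-2.52). Zfp641 and Zfp775 followed, with best values of -9.65 and -9.38. The strongest Wtap-BKO peaks not found in Wtapflox/flox were on Zfp207, whose product BuGZ acts in spindle assembly (181 bases, log10 FDR -13.8, fold enrichment 4.23), Zfp385a (510 bases, -6.81, 2.72), Zfp106 (241 bases, -6.59, 2.48) and Zfp516 (211 bases, -6.15, 4.85). Genes with peaks in Wtap-BKO alone were led by Zfp385a, a cofactor of p53, the KRAB gene Zfp112 (-5.71), the X-linked gene Zfp711 (-4.41) and Zfp991 (-4.39).

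A chosen set of 13 Zfp genes with known roles, several but not all of them in adipose cells or m6A, had 54 peaks in Wtapflox/flox and 50 in Wtap-BKO. Of these, 40 were found in each direction (74.1% and 80.0%), against 65.3% and 76.9% of all Zfp peaks. Zfp516 is induced by cold and activates Ucp1 with PRDM16. It had 5 peaks in each list, 4 of them found in each direction, and its best log10 FDR was -7.96 in Wtapflox/flox and -6.16 in Wtap-BKO. Zfp423, which marks committed preadipocytes and restrains the thermogenic programme, had a single peak of 241 bases in Wtapflox/flox (log10 FDR -9.19, fold enrichment 11.4) and none in Wtap-BKO. Zfp521, an inhibitor of adipogenesis, had 3 and 4 peaks. Zfp467 had 4 and 4, all found both ways, and its strongest had a log10 FDR of -42.6 and then -27.2. Zfp638, a partner of C/EBP factors in early adipogenesis, had 6 and 6. Its peak with a log10 FDR of -37.6 had 391 bases in Wtapflox/flox, all of them within a Wtap-BKO peak of 571 bases. Zfp407, which regulates glucose uptake in adipocytes, had 5 and 3 peaks. On Zfp217 the strongest peak had a log10 FDR of -20 in Wtapflox/flox and -19.6 in Wtap-BKO, with 300 and 330 bases. Zfp281, a pluripotency factor, had 6 and 5 peaks, the strongest with a log10 FDR of -21.1 in Wtapflox/flox and -26.6 in Wtap-BKO. On Zfp148 the 958 bases of the strongest control peak (log10 FDR -64.6) lay over Wtap-BKO peaks of 929 and 420 bases, and on Zfp143 the single peaks of the 2 lists shared 1 base. The strongest peak of Zfp106 had 391 bases and a log10 FDR of -61.1 in Wtapflox/flox, while its Wtap-BKO counterpart had 241 bases and -12.6.

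Transcripts of the KRAB silencing pathway were also examined. Of 23 genes listed for it, 4 of them Zfp genes, 19 had a peak, 17 of them in both lists. Of named genes with a peak, 73.0% outside the Zfp series and 82.6% of the Zfp genes had peaks in both lists. The 19 genes carried 47 peaks in Wtapflox/flox and 52 in Wtap-BKO. The ratio of the counts for named genes outside the Zfp series was 1.03. Of the 47 and 52 peaks, 78.7% and 75.0% were found in the other list, against 69.0% and 68.5% for named genes outside the Zfp series. Without the 4 Zfp genes the shares were 76.5% of 34 peaks and 69.2% of 39. Trim28, Cbx3, Cbx5 and Hdac1 had no peak in either list. Setdb1 had 2 and 1 peaks, the chromatin remodeller Chd4 had 4 and 6, and Atrx had 8 and 7. Of the KRAB proteins with a known target, Zfp445 had each of its 6 and 7 peaks found both ways, the strongest with a log10 FDR of -108 (571 bases) in Wtapflox/flox and -65.9 (421 bases) in Wtap-BKO. Zfp809, which silences endogenous retroviruses, had 3 peaks in each list, all found. Zfp568, which represses a placental Igf2 transcript, had 3 and 1, and Zfp57 had 1 and 2.

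Markers of other cell types had more peaks in the Wtap-BKO list. Of 10 macrophage markers, 9 had a peak in either list and 3 in Wtap-BKO alone, with 10 peaks in Wtapflox/flox and 24 in Wtap-BKO. The T/B lymphocyte markers (4 of 10 with a peak) had 3 and 8 peaks and the skeletal muscle markers (9 of 10) had 3 and 14, while the 12 brown adipocyte markers, all with a peak, had 34 and 31. The brown adipocyte sum rests on Prdm16, with 8 peaks and 1, as the sums without it were 26 and 30. More Wtap-BKO than Wtapflox/flox peaks were listed on 5 of these 12 markers, fewer on 3 and as many on 4. For the other markers with a peak, more were listed on 7 of 9 (macrophage), 4 of 4 (lymphocyte) and 7 of 9 (muscle), and fewer on none. Among named genes outside the Zfp series with a peak, 13.4% had peaks in Wtap-BKO alone and 33.5% had more Wtap-BKO peaks. Their ratio of Wtap-BKO to Wtapflox/flox peaks was 1.03. The part of the cell makeup in the Zfp counts was not tested.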

How the data were processed

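Poly(A)+ RNA of iBAT was fragmented and immunoprecipitated with an m6A antibody, and IP and input were sequenced. The submitters' processing notes name fastp 0.19.11, BWA 0.7.12, HOMER 4.9.1 and GRCm38.p6. The methods name MACS2 for peak detection, whereas the layout of the lists is that of exomePeak, and the caller could not be settled. The authors deposited 1 list per genotype, called on 1 pooled IP against its input and limited to an FDR under 0.05. The score column deposited by the authors holds the p-value of each peak, 2 deposited columns hold log10 scores of the p-value and the FDR, and the deposited fold enrichment is a ratio of IP over input whose scaling is not given in the sources used here. An FDR given as 0 (147 and 83 peaks) was ranked first. Positions are 1-based. No columns of unnamed samples were present (0).

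Peaks were counted and matched with Python 3.11.15, numpy 2.4.6, pandas 2.3.3 and scipy 1.17.1. Figures were made in matplotlib 3.10.9. Genes were counted by Ensembl identifier for peaks per gene (means and shares) and for the rule of any peak on the same gene. Counts of domain classes, chromosomes and genes in 1 or both lists went by symbol. Zfp865 and Zfp935 have 2 identifiers each. Peaks without a gene symbol (1283 and 1232) entered only the whole-list values. Shares have 95% Wilson intervals and differences of shares Newcombe intervals. The depth is unknown, and a peak absent from a list is 1 that did not pass the authors' threshold there. The search for shared bases was tested on simulated data, copies of the 18400 Wtapflox/flox peaks that were kept, trimmed or dropped, and 18400 gave the known answer. All 733 and 646 Zfp peaks had their gene in the RefSeq table, and 98.6% and 97.5% lay inside its span.

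The members, gene lists and rules were chosen with earlier results of these data known. Named genes are the 6 with most peaks per list, the 4 strongest peaks, the 4 strongest not found and the 4 strongest on genes of 1 list, the 3 longest, the 3 with most blocks, and the 13 with known roles. The corepressor list names further Zfp genes, and Zfp704, Zfp59, Zfp2, Zfp560 and Zfp553 were chosen after their values were seen. No sequence of a peak is shown, as no genome was used here.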

Additional observations from a re-analysis of the deposited data

How the results depend on the processing

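No paired analysis was possible because each genotype has 1 pooled IP and 1 pooled input, and for the same reason no sample could be left out. The Wtapflox/flox difference in the share found, -3.64 points, was 3.85 (1.79 to 5.48) with any peak on the same gene and 3.40 (-0.624 to 6.83) among peaks with an FDR under 1e-05. Under that FDR limit the Zfp peaks numbered 404 and 298 and the Wtap-BKO genes 167, genes in both lists 150 and in Wtapflox/flox alone 50. The differences in peaks per gene were then 0.410 and 0.137 (-0.0266 to 0.301), the median lengths 361 and 331 bases (330 and 300 for other genes), and the Wtap-BKO difference in the share found 12.7 points, or 13.7 with the limit on both lists. The limit keeps fewer peaks and the gene rule is met more easily by construction, and beyond this the cause was not tested. The Wtapflox/flox difference near the 3ʹ end was -5.66 points within 500 bp, against -8.87 within 1000 bp. The other 40 values stayed within 1.5 times or the interval of their first value, but the interval came to include 0 for the Wtapflox/flox share found with the limit on both lists (-4.01, -8.90 to 0.648) and the Wtap-BKO share within 2000 bp of the 3ʹ end (-3.77, -7.31 to 0.0114). Among the 40 were those without peaks shared with another gene and those without members lacking C2H2 fingers. The unknown depth limits each count that compares the genotypes.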
